A study of Mus musculus with 8 samples.

Results

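Genes that make, phosphorylate and use nicotinamide adenine dinucleotide (NAD) were compared between splenic cDC1 sorted by a mitochondrial dye signal. The members were chosen by name, as the probe sets that carry 1 of 10 listed gene symbols in the platform annotation: Nampt, Nmnat1, Nmnat3, Nadsyn1 and Naprt for synthesis, Nadk and Nadk2 for phosphorylation, and Sirt1, Sirt3 and Cd38 for consumption. Of these, 9 had a probe set, 1 each, out of 19505 named genes on the array. No probe set carried the symbol Cd38, so that gene was not analysed here and consumption is represented by 2 sirtuins.

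The samples are 4 arrays of TMRM/MG-high and 4 arrays of TMRM/MG-low cDC1, the dendritic cell type that specialises in presenting antigen to CD8 T cells. All cells came from spleens of naive wild-type C57BL/6 mice, and the labels give no age, no treatment and no statement on pooling. TMRM is a dye that gathers in mitochondria according to their membrane potential, and the labels do not spell out MG. The comparison addresses transcript differences between these 2 sorted fractions. No label ties a replicate to an animal or a pool, so the p-values reflect the scatter of these arrays alone, part of which may be technical.

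NAD carries electrons from fuel breakdown to the respiratory chain, and its phosphorylated form, NADP, serves biosynthesis and defence against oxidants. Most mammalian cells rebuild NAD from nicotinamide: NAMPT makes nicotinamide mononucleotide, and the NMNAT enzymes turn that into NAD. NAPRT starts a parallel route from nicotinic acid, which NADSYN1 completes. NAD kinases add the phosphate, while sirtuins, PARP enzymes and ectoenzymes such as CD38 split NAD and release nicotinamide again.

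Values are log2 signals, normalised by the authors with RMA, which brings the arrays to a common scale, so each difference is relative to the other transcripts. The median over the tested probe sets was 8.11 to 8.16 on the TMRM/MG-high and 8.11 to 8.16 on the TMRM/MG-low arrays. The median of the negative controls was 6.77 to 6.93 on TMRM/MG-high and 6.72 to 6.81 on TMRM/MG-low arrays. All 9 members lay above the negative control median on every array. The cDC1 label was set beside the chemokine receptor Xcr1, at 12.60 to 12.72 on TMRM/MG-high and 12.35 to 12.57 on TMRM/MG-low arrays, and the dead-cell receptor Clec9a, at 11.71 to 11.83 on TMRM/MG-high and 11.94 to 12.05 on TMRM/MG-low arrays. Neither of these, nor any of the other 7 cDC1 markers examined, passed the test used below, although the fractions did not overlap in 4 of the 9 (44.4%, against 16.1% of all probe sets). The monocyte and macrophage marker Lyz2 was also bright, at 11.33 to 11.62 on TMRM/MG-high and 11.59 to 11.70 on TMRM/MG-low arrays. Signal level alone therefore does not verify the label. Differences below are TMRM/MG-high minus TMRM/MG-low, with the standard error (SE) of a linear model fitted over all probe sets (limma), and a gene is said to rise or fall where the Benjamini-Hochberg adjusted p over all probe sets is below 0.05. By this rule 1173 probe sets rose (5.28%) and 658 fell (2.96%), 8.25% of those tested in all. The deposited values of the tested probe sets did not have identical distributions: after a further quantile normalisation of them the split was 852 and 858.

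Nampt, which encodes the rate-limiting enzyme of NAD salvage, was the 1 member of 9 that rose, and none fell (11.1% called, against 8.25% of all probe sets, 5.28% higher and 2.96% lower). The probe set for Nampt read 10.61, 10.78, 10.58 and 10.62 on the TMRM/MG-high arrays, against 9.86, 9.76, 10.30 and 9.93 on the TMRM/MG-low arrays. The fractions did not overlap: the lowest TMRM/MG-high array stood 0.28 above the highest TMRM/MG-low array, replicate 3, which lay apart from the other three of its fraction. Its mean was 10.65 ± 0.091 in TMRM/MG-high and 9.96 ± 0.23 in TMRM/MG-low cells (SD, n = 4 each), a log2 difference of 0.69 (SE 0.11, limma adjusted p = 0.00887) or a fold of 1.61 (95% interval 1.36 to 1.92). Of all tested probe sets, 0.473% had a difference at least as large in this direction.

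**Figure D1:**
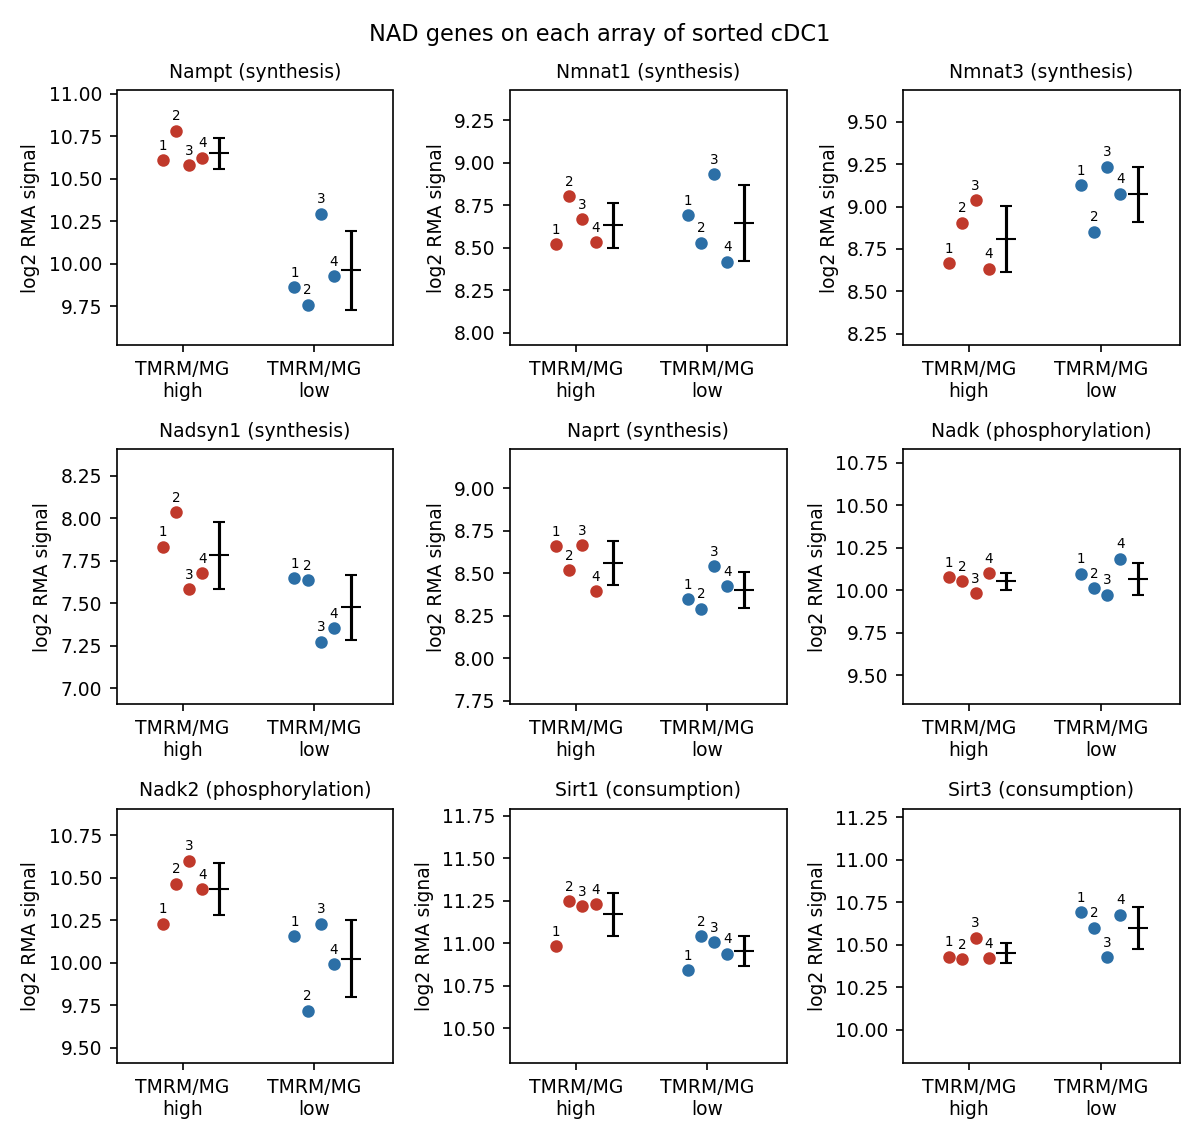
Log2 RMA signal of the 9 NAD genes on each array. Each panel shows 1 gene over a range of 1.5 log2 units that does not start at 0; red points are the 4 TMRM/MG-high and blue points the 4 TMRM/MG-low arrays, numbered by replicate, and the black bars give the mean ± SD. Nampt and Nadk2 have no overlap between the fractions; the other 7 genes do.

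The Nampt call was kept when any 1 array was left out, with differences of 0.62 to 0.80 and limma adjusted p of 0.00165 to 0.0334; the highest difference was without TMRM/MG-low replicate 3. It was lost in 2 other settings. A test with unequal variances and no sharing of variance between probe sets gave the same difference with adjusted p = 0.119. With the mean level of 8 spike-in control probe sets as a covariate, the difference was 0.31 (SE 0.27, 95% interval -0.28 to 0.90, limma adjusted p = 0.9996), and limma called no probe set of the whole array (472 higher and 568 lower at an unadjusted p below 0.05). The spike-in level was 8.88 to 9.43 on TMRM/MG-high and 9.79 to 10.23 on TMRM/MG-low arrays, without overlap, so spike-in level and fraction cannot be told apart.

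**Figure D2:**
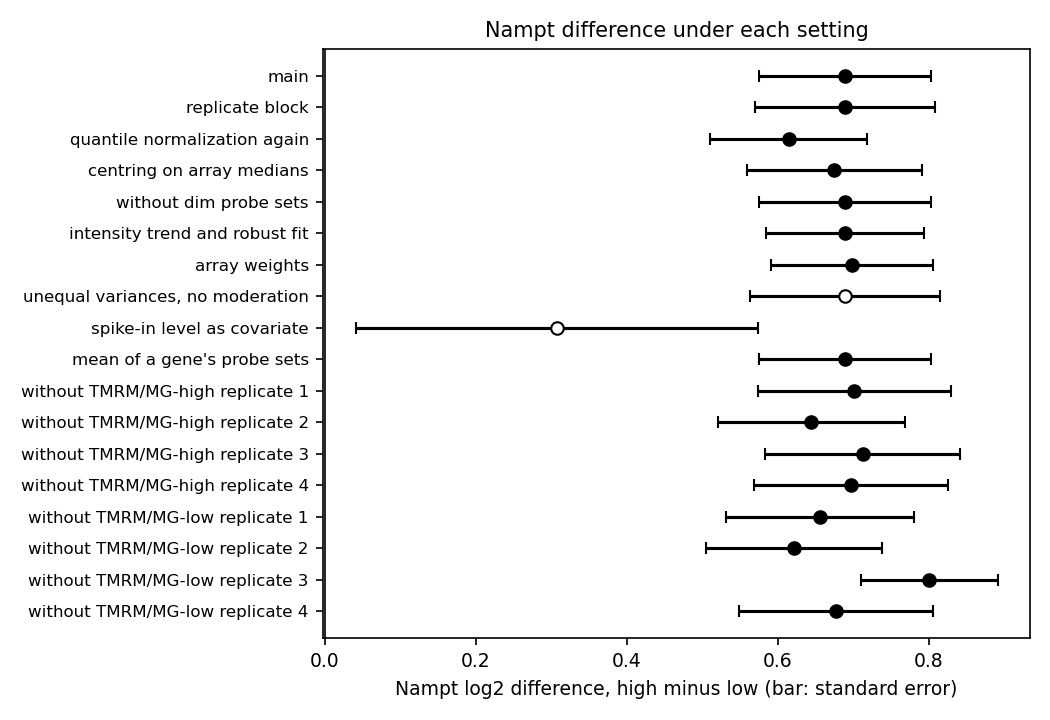
Log2 difference of Nampt, TMRM/MG-high minus TMRM/MG-low, under the reported fit (main) and 17 alternatives. Points are the estimates, bars the standard error, and filled points have an adjusted p below 0.05. All estimates are above 0; the open points are the test with unequal variances (0.69) and the spike-in covariate (0.31).

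Markers of other spleen cells moved between the fractions too, and their part in the Nampt difference was not tested. Plasmacytoid dendritic cell markers rose in 8 of 10 cases (5.28% of all probe sets rose and 2.96% fell), with a mean list level of 10.08 to 10.45 on TMRM/MG-high and 9.42 to 9.62 on TMRM/MG-low arrays. T cell markers fell in 4 of 6 cases (8.81 to 9.11 on TMRM/MG-high and 9.09 to 9.76 on TMRM/MG-low arrays). Of the 6 neutrophil markers Csf3r alone was called by limma (8.71 to 9.21 on TMRM/MG-high and 9.30 to 9.69 on TMRM/MG-low arrays). However, all 6 neutrophil markers were negative, with a median difference of -0.56, and 5 had an unadjusted p below 0.05 (83.3%, against 25.5% of all probe sets). None of the 7 NK cell markers was called by limma (8.76 to 9.63 on TMRM/MG-high and 9.11 to 10.15 on TMRM/MG-low arrays), but 6 were negative and 5 had an unadjusted p below 0.05 (71.4%, against 25.5% of all probe sets). Their median difference was -0.70, as was that of the T cell markers. TMRM/MG-low replicate 3, where Nampt was highest within its fraction, had the lowest T cell (9.09) and NK cell (9.11) but the highest neutrophil (9.69) marker level of that fraction. No marker of these 4 lists was below the negative control median on any array. Of 9 monocyte and macrophage markers Ly6c2 alone rose (0.85, limma adjusted p = 0.00677), or 11.1% called, against 8.25% of all probe sets. None of 8 cDC2 markers (1 unadjusted p below 0.05) and none of 7 B and plasma cell markers (0 unadjusted) was called by limma. In bulk arrays, fewer cells of a type and less RNA per cell cannot be told apart.

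The 250 bases before the RefSeq start of Nampt and of Nmnat3 are shown because these genes had the largest positive and the largest negative difference among the members. Both are from build GRCm38.p6, plus strand, at chr12:32820085-32820334 for Nampt and chr9:98296320-98296569 for Nmnat3, and capitals mark the letters of the GC box core, GGGCGG, on either strand.
Nampt: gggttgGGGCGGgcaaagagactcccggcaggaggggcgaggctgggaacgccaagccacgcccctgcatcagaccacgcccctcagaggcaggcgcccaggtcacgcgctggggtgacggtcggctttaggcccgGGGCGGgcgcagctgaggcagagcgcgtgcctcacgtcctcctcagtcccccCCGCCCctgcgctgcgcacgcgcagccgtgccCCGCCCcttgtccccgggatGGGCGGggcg
Nmnat3: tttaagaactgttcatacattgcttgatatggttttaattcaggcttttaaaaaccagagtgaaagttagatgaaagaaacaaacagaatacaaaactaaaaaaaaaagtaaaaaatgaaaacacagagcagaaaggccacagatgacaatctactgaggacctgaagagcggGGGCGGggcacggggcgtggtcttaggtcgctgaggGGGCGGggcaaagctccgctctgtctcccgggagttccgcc
The Nampt window held this motif at 5 positions and was 75.6% G or C, while the Nmnat3 window held it at 2 positions and was 45.6% G or C. The count did not follow the differences of the members. The window of Sirt1, which was not called, held the motif at 6 positions and was 79.2% G or C. That of Nadsyn1, with a positive difference, held it at 2 positions. Of 32851 RefSeq windows of the same length, 32.7% held GGGCGG at least once. Neither window held the E-box CACGTG (6.02% of all windows) or the cAMP response element TGACGTCA (1.55%), whereas that of Sirt1 held the E-box at 2 positions and 1 of 2 windows of Nadk held it once. RefSeq windows were matched for 7 of the 9 members, not Naprt and Nadk2. A letter match is a description and shows no binding.

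The adenylyl transferases, which act after Nampt, did not pass the test. Nmnat1, the nuclear enzyme, read 8.52, 8.80, 8.67 and 8.53 on TMRM/MG-high arrays, against 8.69, 8.53, 8.93 and 8.42 on TMRM/MG-low arrays. The fractions were interleaved, and the difference of -0.01 (SE 0.12, 95% interval -0.27 to 0.24, limma adjusted p = 0.962) changed sign in 4 of the 8 omissions of 1 array. Nmnat3, described as the mitochondrial enzyme, read 8.67, 8.90, 9.04 and 8.63 on TMRM/MG-high arrays, against 9.13, 8.85, 9.23 and 9.08 on TMRM/MG-low arrays. Only TMRM/MG-low replicate 2 lay within the range of the TMRM/MG-high arrays. The difference of -0.26 (SE 0.11) had an unadjusted p = 0.0411 and did not pass after adjustment (limma adjusted p = 0.176). With the spike-in covariate it was -0.72 (95% interval -1.28 to -0.15, adjusted p = 0.9996).

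The nicotinic acid route showed small positive differences that did not pass. Nadsyn1, the glutamine-dependent NAD synthetase, read 7.83, 8.04, 7.58 and 7.68 on TMRM/MG-high arrays, against 7.65, 7.63, 7.27 and 7.35 on TMRM/MG-low arrays. The overlap was slight, with TMRM/MG-high replicate 3 below TMRM/MG-low replicates 1 and 2. The difference was 0.30 (SE 0.12, limma adjusted p = 0.141). Adding spike-in level as covariate gave 0.77 (95% interval 0.16 to 1.37, adjusted p = 0.9996). Naprt, the nicotinate phosphoribosyltransferase, read 8.66, 8.52, 8.67 and 8.40 on TMRM/MG-high arrays, against 8.35, 8.29, 8.54 and 8.42 on TMRM/MG-low arrays. Replicates 1 and 3 of the TMRM/MG-high fraction stood above all TMRM/MG-low arrays and replicates 2 and 4 among them. The difference was 0.16 (SE 0.093, limma adjusted p = 0.313).

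The kinases that turn NAD into NADP had unlike values. Nadk2, the mitochondrial NAD kinase, read 10.23, 10.47, 10.60 and 10.43 on TMRM/MG-high arrays, against 10.15, 9.72, 10.23 and 9.99 on TMRM/MG-low arrays. The fractions did not overlap, but the lowest TMRM/MG-high array exceeded the highest TMRM/MG-low array by just 0.00062. The difference of 0.41 (SE 0.12, 95% interval 0.15 to 0.67, a fold of 1.33) narrowly missed the threshold, with limma adjusted p = 0.0576. It passed in 2 of the 8 omissions of 1 array, without TMRM/MG-high replicate 1 (0.48, adjusted p = 0.0406) and without TMRM/MG-low replicate 3 (0.48, adjusted p = 0.0325). In the other omissions the adjusted p was up to 0.157. Of the 9 settings that kept all arrays, it passed in 3 ways of filtering or weighting (adjusted p = 0.0211 to 0.0476). A further quantile normalisation gave 0.33 (limma adjusted p = 0.110), and the spike-in covariate gave -0.14.

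Nadk, the cytosolic NAD kinase, was the member whose arrays lay closest together. It read 10.08, 10.05, 9.98 and 10.10 on TMRM/MG-high arrays, against 10.10, 10.01, 9.97 and 10.18 on TMRM/MG-low arrays. The fractions were interleaved and the difference was -0.01 (SE 0.081, limma adjusted p = 0.939). Its 95% interval ran from -0.19 to 0.16 on the log2 scale.

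Among the consumers, neither sirtuin passed the test. Sirt1, the nuclear NAD-dependent deacetylase, read 10.98, 11.25, 11.22 and 11.23 on TMRM/MG-high arrays, against 10.84, 11.04, 11.01 and 10.94 on TMRM/MG-low arrays. Replicate 1 was the low array of both fractions, and in TMRM/MG-high cells it fell among the TMRM/MG-low arrays while the other three stood above them. The difference was 0.21 (SE 0.089, unadjusted p = 0.0351, limma adjusted p = 0.162). Sirt3, the mitochondrial deacetylase, read 10.43, 10.41, 10.54 and 10.42 on TMRM/MG-high arrays, against 10.69, 10.60, 10.43 and 10.68 on TMRM/MG-low arrays. TMRM/MG-low replicate 3 was apart from its fraction and lay within the TMRM/MG-high values. The difference was -0.15 (SE 0.086, limma adjusted p = 0.313).

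**Figure D3:**
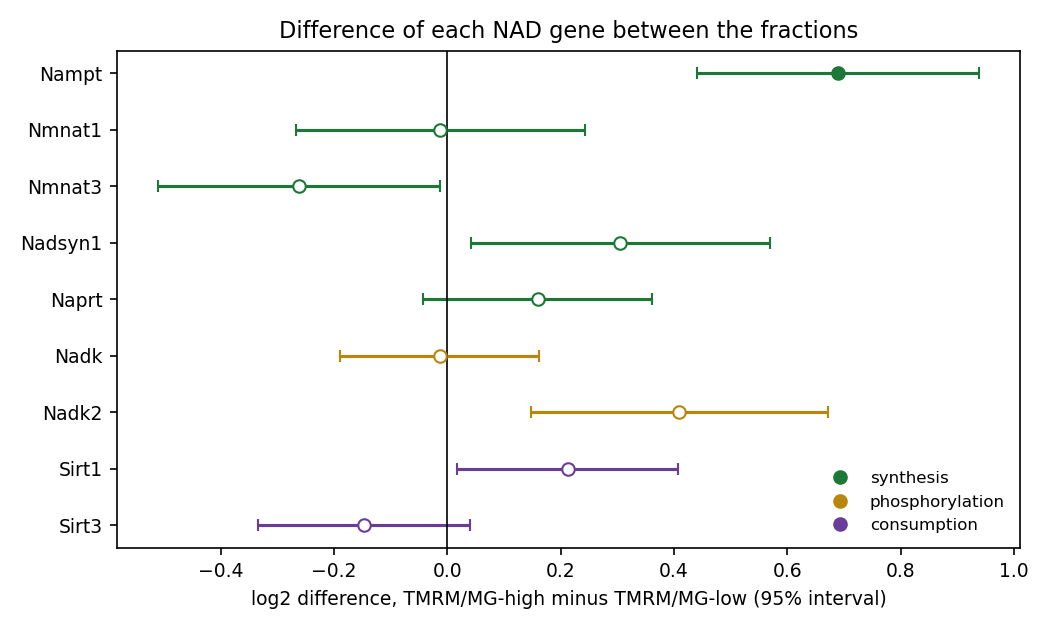
Log2 difference of each NAD gene, TMRM/MG-high minus TMRM/MG-low, with its 95% interval from the linear model (n = 4 arrays each). Colours give the role, and the filled point marks the gene with an adjusted p below 0.05. Nampt, at 0.69, lies highest; Nmnat3 (-0.26) and Sirt3 (-0.15) lie lowest.

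Set side by side, synthesis genes had differences from -0.26 to 0.69 with a median of 0.16 (n = 5), the kinases a median of 0.20 (n = 2) and the sirtuins a median of 0.03 (n = 2). The median over all 22206 probe sets was 0.01, and positive and negative signs occurred within each of the 3 roles. Over all 9 members, 5 had a positive difference and 5 an unadjusted p below 0.05 (55.6%, against 25.5% of all probe sets), namely Nampt, Nadk2, Nadsyn1, Sirt1 and Nmnat3, the last of them negative. Groups without overlap were found in 2 of 9 members (22.2%, against 16.1% of all probe sets), Nampt and Nadk2, both higher. Over all probe sets, 9.7% had every TMRM/MG-high array above every TMRM/MG-low array and 6.37% every one below.

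Within 3 pairs of related enzymes, the mitochondrial form was set against the nuclear or cytosolic one on each array, a comparison chosen after the values were seen. The gap moved by -0.25 for Nmnat3 over Nmnat1 (exact p = 0.0857), by 0.42 for Nadk2 over Nadk (exact p = 0.0571) and by -0.36 for Sirt3 over Sirt1 (exact p = 0.0571). These two-sided exact permutation tests of 4 against 4 arrays can reach 0.0286 at the lowest, and a single pair at that value would still have 0.0857 after adjustment over 3. The adjusted p was 0.0857 for each pair. The gaps are therefore given as values, and this number of arrays does not settle whether the forms differ.

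The genes nearest to Nampt in pattern were sought among 17485 named probe sets, by the root-mean-square distance between deviations from each gene's own mean over the 8 arrays. They were Prkar2a, a regulatory subunit of protein kinase A (distance 0.073), Fgd6 (0.078), Nostrin, which binds nitric oxide synthase (0.078), Slc49a4 (0.079) and the small GTPase gene Rap2a (0.082). Prkar2a read 9.31, 9.54, 9.16 and 9.14 on TMRM/MG-high arrays, against 8.56, 8.40, 8.89 and 8.53 on TMRM/MG-low arrays. The choice by pattern fixes what these genes share with Nampt: their highest TMRM/MG-low value was on replicate 3, and their differences ran from 0.62 to 0.69.

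**Figure D4:**
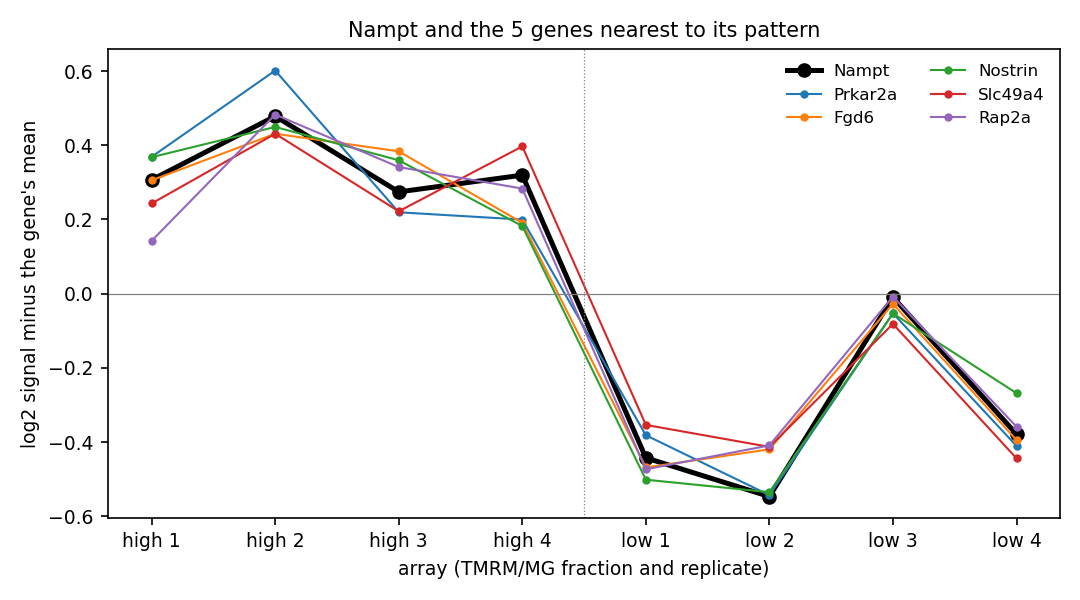
Log2 signal of Nampt (black) and the 5 genes with the nearest pattern, each minus its own mean, over the 4 TMRM/MG-high arrays (left) and the 4 TMRM/MG-low arrays (right). Lines join arrays of no natural order and serve only to follow a gene. Every gene shown is higher on each TMRM/MG-high array than on each TMRM/MG-low array.

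A wider set of 93 symbols of NAD and NADP metabolism was examined around the members, of which 81 had a named probe set. Of these, 4 rose and 2 fell (7.41%, against 8.25% of all probe sets), and their median difference was 0.02, against 0.01 over all probe sets. Groups without overlap made up 16.0% of them, against 16.1% overall.

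Synthesis of NAD from tryptophan runs through kynurenine. Of 9 genes listed with that route 1 rose (11.1% called, against 8.25% of all probe sets). An unadjusted p below 0.05 was found for 4 (44.4%, against 25.5% of all probe sets). Of these, Kmo and Kynu (0.25) were positive, and Ido2 (-0.26) and Acmsd (-0.30) negative. Kmo, kynurenine 3-monooxygenase of the outer mitochondrial membrane, read 10.56, 10.77, 10.79 and 10.92 on TMRM/MG-high arrays, against 10.19, 10.30, 10.61 and 10.26 on TMRM/MG-low arrays. TMRM/MG-low replicate 3 alone overlapped the other fraction. The difference was 0.42 (SE 0.11, limma adjusted p = 0.0381). Ido1, which opens the route in dendritic cells and is named here after its values were seen, averaged 0.42 higher but overlapped widely (SE 0.22, limma adjusted p = 0.263). For Ido1, 1 TMRM/MG-low array lay below the negative control median, so the size is uncertain.

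Of 9 genes listed with the other salvage enzymes, 2 rose (22.2% called, against 8.25% of all probe sets). Both were cytosolic nucleotidases, which remove phosphate from nucleotides and do not build NAD. Nt5c2 read 11.48, 11.60, 11.55 and 11.61 on TMRM/MG-high arrays, against 11.06, 11.13, 11.36 and 11.25 on TMRM/MG-low arrays, without overlap (difference 0.36, SE 0.088, limma adjusted p = 0.0306). Nt5c3 read 7.28, 7.82, 7.35 and 7.61 on TMRM/MG-high arrays, against 6.57, 6.29, 7.31 and 6.995 on TMRM/MG-low arrays. Its difference was 0.72 (SE 0.20, limma adjusted p = 0.0444), but 2 TMRM/MG-low arrays lay below the negative control median, so the size is uncertain. None of 8 transporters of NAD or its precursors was called by limma (2 unadjusted p below 0.05). The smallest p among them belonged to the amino acid transporter Slc36a4 (0.42, limma adjusted p = 0.0623) and the nucleoside transporter Slc29a2 (-0.26, adjusted p = 0.135). Slc25a51, known from human cells as the mitochondrial NAD carrier and named here after its values were seen, differed by -0.10 (SE 0.12, limma adjusted p = 0.671).

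Of 12 genes listed as NADP-linked enzymes or their relatives 1 rose (8.33% called, against 8.25% of all probe sets). Idh2, the mitochondrial isocitrate dehydrogenase that makes NADPH, read 11.08, 11.11, 11.09 and 11.01 on TMRM/MG-high arrays, against 10.59, 10.48, 10.73 and 10.62 on TMRM/MG-low arrays. The fractions were well apart, and the difference of 0.47 (SE 0.081, limma adjusted p = 0.0104) stayed called without any 1 array. The NADPH oxidase, which uses NADPH to make superoxide, had 0 of 5 genes called by limma (1 with an unadjusted p below 0.05). Its membrane subunit gene Cyba differed by 0.23 (limma adjusted p = 0.105) and the GTPase gene Rac2 by -0.08 (adjusted p = 0.547; -0.11 to -0.05 over the omissions of 1 array).

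Consumers other than the members gave 1 call. The 4 other sirtuins had 0 calls by limma (1 unadjusted p below 0.05), with the mitochondrial Sirt4 at -0.31 (limma adjusted p = 0.192) and Sirt5 at -0.11 (adjusted p = 0.583). Leaving out 1 array moved Sirt4 between -0.42 and -0.19 and Sirt5 between -0.17 and -0.02, both nearest to 0 without TMRM/MG-low replicate 1. Of 14 PARP family genes 1 fell (7.14% called, against 8.25% of all probe sets). This was Parp6, a mono-ADP-ribosyltransferase, which read 8.85, 8.94, 8.62 and 9.19 on TMRM/MG-high arrays, against 9.39, 9.32, 9.23 and 9.40 on TMRM/MG-low arrays. These did not overlap (difference -0.44, SE 0.11, limma adjusted p = 0.0374). Of 6 other NAD-cleaving enzymes none was called by limma (1 unadjusted p below 0.05): Bst1, the relative of Cd38, had 0.37 (SE 0.11, limma adjusted p = 0.0531), and the ADP-ribosyltransferase gene Art3 had 0.13 (adjusted p = 0.311). Bst1 passed in 1 of the 8 omissions of 1 array, without TMRM/MG-low replicate 3 (0.44, adjusted p = 0.0261), with adjusted p up to 0.149 in the others. Of the 9 settings that kept all arrays it passed in 4. These were without dim probe sets (0.0426), with trend and robust fit (0.0196), with array weights (0.0273) and with a replicate block.

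Enzymes that clear ADP-ribose, NAD or nicotinamide gave 1 call. In the ADP-ribose group 0 of 6 were called by limma, while 3 had an unadjusted p below 0.05 (50%, against 25.5% of all probe sets). Parg, the poly(ADP-ribose) glycohydrolase, was at 0.66 (SE 0.19, limma adjusted p = 0.0548) and the ADP-ribose hydrolase gene Nudt9 at 0.29 (adjusted p = 0.0544). Parg passed without TMRM/MG-low replicate 3 (0.85, adjusted p = 0.00801). Both passed without dim probe sets, with trend and robust fit and with array weights (adjusted p = 0.0279 to 0.0478 for Parg and 0.0135 to 0.0399 for Nudt9). Of 8 genes for repair, breakdown and clearance 1 was called (12.5%, against 8.25% of all probe sets). Nudt12, an NADH hydrolase, fell by 0.48 (SE 0.11, limma adjusted p = 0.0262). It read 6.30, 6.10, 5.95 and 6.26 on TMRM/MG-high arrays, against 6.89, 6.62, 6.55 and 6.47 on TMRM/MG-low arrays, and 7 of the 8 arrays were below their negative control median, so neither size nor presence is certain.

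Of the 6 wider genes called, Idh2 alone kept its call in all 8 omissions of 1 array. Kmo, Nt5c2 and Nt5c3 kept it without TMRM/MG-high replicate 1 or TMRM/MG-low replicate 3 (differences of 0.39 to 0.89) and lost it when any of the other 6 arrays was left out (0.31 to 0.79). Parp6 kept it without TMRM/MG-high replicate 4 or TMRM/MG-low replicate 3 (-0.53 and -0.47) and lost it in the other 6 omissions (-0.45 to -0.34). Nudt12 kept it without TMRM/MG-high replicate 1 or 4 or TMRM/MG-low replicate 3 or 4, and its difference over the 8 omissions was -0.53 to -0.39. A group of 3 arrays also gives the test less power.

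**Figure D5:**
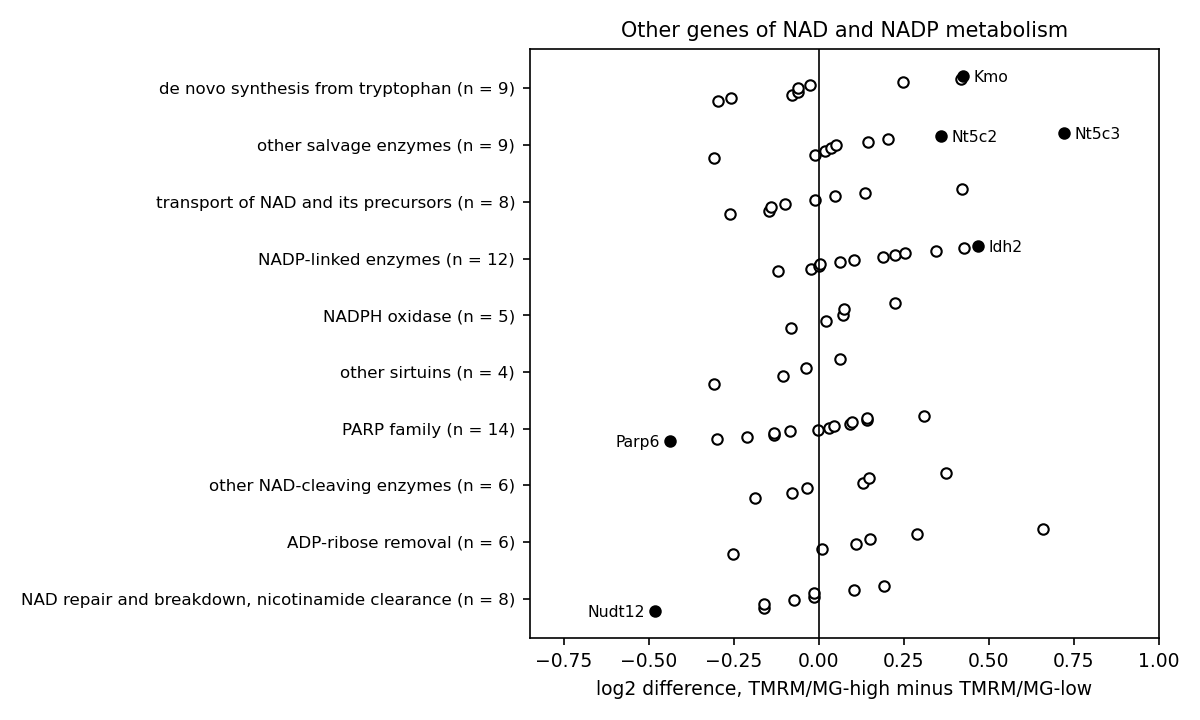
Log2 differences, TMRM/MG-high minus TMRM/MG-low, of 81 other genes of NAD and NADP metabolism by group. Each point is a gene, and filled, named points have an adjusted p below 0.05: Kmo, Nt5c2, Nt5c3 and Idh2 are higher, Parp6 and Nudt12 lower.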

How the data were processed

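The deposited log2 values were made by the authors with RMA in Affymetrix Expression Console 1.1, per the submitters' processing notes, from biotin-labelled target of the Whole Transcript Plus kit, per the labels. The sources used here name no genome build for the array, and no scanner file was used. Array number, 4 per fraction, limits the precision.

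The deposited table has 28846 probe sets, and removing 6640 controls left 22206 for testing. Of these, 19572 had 1 symbol in the platform annotation, 2634 were unnamed here and none had several; all 19572 matched RefSeq (GRCm38.p6) by Entrez ID. Fractions were compared by moderated linear models (lmFit, eBayes; limma 3.58.1, R 4.3.3), two-sided and without a block, with Benjamini-Hochberg adjustment at 0.05. The procedure was tested on simulated data with independent normal noise for each probe set and array. That test does not cover structure shared between arrays, such as the spike-in level.

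The members, lists and the spike-in covariate were chosen with earlier results of these data known. Named wider genes are those called in each list, or else the 2 of smallest p, and the 5 genes nearest to Nampt, predicted and non-coding symbol classes left out; genes with several probe sets use the one of highest mean. Alternatives were a replicate block, quantile normalisation, centring, a filter on dim probe sets, trend with robust fit, array weights, an unmoderated test, the spike-in covariate, averaged probe sets and leaving out each array.  Pair tests used exact permutation, and figures matplotlib 3.10.9.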

Additional observations from a re-analysis of the deposited data

Results flagged for a closer look

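Among 25 named genes in both fractions, 3 arrays stood apart from the others of their group by the Dixon gap test for 4 values, where about 1 in 20 groups would by chance. Sirt1 on TMRM/MG-high replicate 1 was 10.98, against 11.22 on the next array. Sirt3 on TMRM/MG-high replicate 3 was 10.54, against 10.43. Cyba on TMRM/MG-high replicate 1 was 12.60, against 12.77.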

How the results depend on the processing

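The Nampt difference was between 0.61 and 0.70 in 8 of 9 settings that kept all arrays and 0.62 to 0.80 over the 8 omissions of 1 array. It lost its call with unequal variances (0.69, adjusted p = 0.119) and with spike-in level as covariate (0.31). With the replicate block it was 0.69 (limma adjusted p = 0.0168), and the block changed no member's call; among wider genes Nt5c3 lost its call (adjusted p = 0.0549), Bst1 (0.0293) and Slc36a4 (0.0304) gained one, and those called higher were 6, against 4. Over all probe sets, same-numbered arrays did not all deviate together (correlations of deviations 0.27, 0.055, 0.015 and 0.039), nor did each correlate best with its own number. Several markers, such as S100a4, S100a8, Itgae and Cox6a2, did run alike by number, while others, such as Klk1, did not. What the numbers share is not given, and the marker calls above are without the block. Nadk2 passed without dim probe sets (0.41), with trend and robust fit (0.41) and with array weights (0.47). It did not pass with the replicate block (limma adjusted p = 0.0566), after quantile normalisation (0.33, limma adjusted p = 0.110) or after centring (0.40, limma adjusted p = 0.0650). Nor did it pass with unequal variances (0.41, adjusted p = 0.194). It turned to -0.14 with the spike-in covariate, and ranged from 0.31 to 0.48 over the omissions, passing in 2 of 8. Signs also turned for Nmnat1 with array weights (0.039; -0.088 to 0.085 over omissions), for Nadk with the covariate (0.0086; -0.045 to 0.026 over omissions), and with the covariate for Sirt1 (-0.054), Kmo (-0.052), Nt5c3 (-0.37), Slc36a4 (-0.30), Cyba (-0.038) and Parg (-0.32), while Nmnat3 moved to -0.72 and Nadsyn1 to 0.77. The cause was not tested.

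Members called higher were 2 without dim probe sets, with trend and robust fit, and with array weights, 0 with unequal variances (3 at an unadjusted p below 0.05) and 0 with the covariate (1 unadjusted), and 1 to 2 over the omissions; members called lower were 0 in all 17 settings (by limma with the covariate, 1 unadjusted). Wider genes called higher were 8 without dim probe sets, 11 with trend and robust fit, 10 with array weights, 0 with unequal variances (15 unadjusted) and 0 with the covariate (1 unadjusted), and 1 to 8 over the omissions. Wider genes called lower were 4 after quantile normalisation, 1 without dim probe sets, where Nudt12 is filtered, 0 with unequal variances (6 unadjusted) and 0 with the covariate (2 unadjusted), and 0 to 2 over the omissions. All probe sets called higher were 1950 with trend and robust fit, against 1173 in the main fit. This was the most of the 9 settings that kept all arrays, so the added member call there came with more calls over the whole array. They were 11 with unequal variances, 0 with the covariate (472 unadjusted) and 183 to 1680 over the omissions. All probe sets called lower were 30 with unequal variances, 0 with the covariate (568 unadjusted) and 218 to 793 over the omissions. Omissions also lower power.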
